A study of Mus musculus with 136 samples.

Results

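Solute carriers are membrane proteins that move amino acids, sugars, metal ions, organic acids and nucleotides across the plasma membrane and the membranes of organelles. The genes described here are the solute carriers that mouse bone marrow-derived macrophages expressed: 94 of the 15196 genes in the deposited expression table. A gene was a member when its symbol began with Slc and a digit, Slc25a10 aside, and its level reached an RPKM (reads per kilobase of gene, scaled to the size of the library) of 1 in at least 2 of 26 libraries, namely those labelled Nfkbiz_WT, Bcl3_WT, Control and IkBz_OE. The table held 227 Slc genes, of which 132 fell short of that bar. These levels chose the members and are a description only. Just inside the bar, the second-highest RPKM over those libraries was 1.33 for Slc25a35, 1.51 for Slc36a2 and 1.53 for Slc1a4, and just outside it was 0.972 for Slc22a15, 0.949 for Slc45a3 and 0.945 for Slc23a1. Of the 94 members, 92 reached the bar from the 6 libraries of polyA RNA alone (Control and IkBz_OE), and all 94 also reached it without the Nfkbiz_WT libraries and without the Bcl3_WT libraries. Members were grouped by substrate: 21 mitochondrial carriers, 19 carriers of inorganic ions or regulators of pH, 16 of amino acids and peptides, 13 of nucleosides and nucleotide sugars, 8 of zinc, 5 of iron, copper and heme, 5 of sugars, 4 of carboxylates and fatty acids, and 3 of vitamins and other organic ions. Slc9a3r1 carries an Slc symbol but encodes a scaffold protein that binds transporters, not a transporter.

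Macrophages that sense lipopolysaccharide change what they take up and release. Ferroportin (Slc40a1) exports iron and Slc11a1 withdraws metals from the phagosome, Slc7a11 imports cystine for glutathione synthesis, Slc2a1 imports glucose, and Slc15a3 and Slc15a4 move histidine and bacterial peptides out of endolysosomes, where innate immune receptors sit. Lipid A is the part of lipopolysaccharide that activates TLR4, and TNFa is a cytokine that activates NF-kB through its own receptor. The p50 protein, made from Nfkb1, is an NF-kB subunit without a transactivation domain; Bcl3, IkBz (made from Nfkbiz) and IkBNS (made from Nfkbid) are nuclear IkB proteins that can bind it.

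The study asked which genes activated by lipid A depend on p50 and on the nuclear IkB proteins. Bone marrow of mice labelled wild type (C57/B16), Nfkb1-/-, Nfkbiz-/-, Bcl3-/- or Nfkbid-/- was grown for 6 days with M-CSF. Chromatin-associated RNA, which is enriched in transcripts still being made, was sequenced at 0, 0.5, 1, 2 and 6 h of lipid A in 4 series, each with its own wild type: Nfkb1 and Nfkbid with 3 replicates per genotype and time, Nfkbiz and Bcl3 with 2. Chromatin RNA was also sequenced once per point in wild-type cells given TNFa for 0, 0.5, 1, 2 and 6 h, and in wild-type cells pretreated with DMSO or an ERK inhibitor (ERKi) before lipid A, at 0, 15, 30 and 60 min. PolyA RNA was sequenced, 1 library per point except where stated, in wild-type cells over both time courses (the mRNA series, sharing 1 library at 0 h); in wild-type cells labelled Control or IkBz OE, for overexpression of IkBz, at 0 h and after 2 h of lipid A or TNFa; and in cells labelled J2 BMDM at 0 and 2 h of lipid A, of wild-type, Nfkb1-/- and, with 2 replicates, Nfkb1-/-, Nfkb2-/- genotype. The labels do not say how IkBz was expressed, what J2 stands for here, or whether replicates came from separate animals, so p-values measure only the spread between these libraries.

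Depth recovered from the values was 7.86 to 45.3 M reads (M, 1e6) in the 113 chromatin libraries (median 28.8) and was lowest in replicate 1 of the Nfkb1 series (7.86 to 16.2); depth is unknown for polyA RNA. Chromatin values are per kilobase of the whole gene, introns included, so chromatin and polyA levels are on different scales. Replicate 1 of the Nfkbid series stood apart in both genotypes, with Malat1 at 6.92 to 19.4 RPKM against 823 to 1640 in replicates 2 and 3, and with 4 macrophage markers (of 7, the others not in the table) summing to between 611 and 1229.5 in its wild type against 8.25 to 160 in chromatin libraries outside that replicate; it was left out of the tests. Markers of neutrophil, dendritic, lymphoid, mast, erythroid and stromal cells summed to at most 1.46 RPKM per list in the remaining chromatin libraries. Nfkb1 RNA was not lower in the libraries labelled Nfkb1-/-, Bcl3 RNA was higher in those labelled Bcl3-/- (median 17.5 against 9.07 in wild type), and the Nfkbiz and Nfkbid genes themselves were not analysed here, so genotypes are as labelled. In bulk RNA a change in the share of a cell type and a change within cells cannot be told apart.

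Of the members, 67 had a promoter in the RefSeq table of the GRCm38.p6 build, and the 250 bases before their start sites were searched on both strands for short motifs. The promoters of 4 members described below are printed 5′ to 3′ in the sense of the gene, with matches in capitals. Slc13a3 is shown because it had the highest ratio under IkBz overexpression, in libraries that helped to choose the members. Slc31a1 is shown because it fell in the Nfkbiz knockout, and Slc12a4 and Slc7a11 because lipid A raised them early. In Slc13a3 the capitals mark an antioxidant response motif (TGACNNNGC, in 10.2% of all 32851 windows of this length and in 12 of the 67 members) and an Egr motif (GCGNGGGCG, 4.70% and 9 members). In Slc12a4 they mark a pair of kappaB-like motifs of the kind bound by p50 (GGGG and CCC on either side of 3 free bases, 4.51% and 3 members), and in Slc7a11 a pair of amino acid response motifs (TGATGNAA, 3.45% and 4 members), 1 on each strand. Slc31a1 held none of the motifs searched.
Slc13a3, chr2:165473198-165473447, minus strand: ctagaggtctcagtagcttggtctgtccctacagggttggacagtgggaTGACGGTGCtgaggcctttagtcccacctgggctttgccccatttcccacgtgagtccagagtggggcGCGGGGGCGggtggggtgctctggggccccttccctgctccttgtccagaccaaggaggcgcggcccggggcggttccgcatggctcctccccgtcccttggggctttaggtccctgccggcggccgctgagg
Slc31a1, chr4:62360451-62360700, plus strand: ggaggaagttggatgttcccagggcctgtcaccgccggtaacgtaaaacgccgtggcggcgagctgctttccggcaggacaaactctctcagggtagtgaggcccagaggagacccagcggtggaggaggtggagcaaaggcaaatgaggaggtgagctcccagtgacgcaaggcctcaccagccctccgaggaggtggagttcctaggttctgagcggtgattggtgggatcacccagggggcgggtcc
Slc12a4, chr8:105966116-105966365, minus strand: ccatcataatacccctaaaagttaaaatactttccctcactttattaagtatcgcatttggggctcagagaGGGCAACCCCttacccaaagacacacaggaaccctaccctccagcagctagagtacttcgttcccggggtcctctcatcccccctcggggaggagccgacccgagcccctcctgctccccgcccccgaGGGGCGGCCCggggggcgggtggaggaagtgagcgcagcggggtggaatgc
Slc7a11, chr3:50443614-50443863, minus strand: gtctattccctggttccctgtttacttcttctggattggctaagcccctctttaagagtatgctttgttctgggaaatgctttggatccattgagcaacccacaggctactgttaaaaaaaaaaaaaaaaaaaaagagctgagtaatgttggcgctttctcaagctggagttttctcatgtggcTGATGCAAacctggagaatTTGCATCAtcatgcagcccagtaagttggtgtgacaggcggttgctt
The motif TGANTCA of AP-1 (6.75% of windows) was found in 4 of the 67 members, while the kappaB consensus of GGGA and TTCC around 2 free bases (1.21%) and the interferon response motif of GAAA and GAAA around 2 free bases (2.98%) were found in none. These matches describe letters in a window and say nothing of binding; Slc15a3, Slc25a37, Slc26a11 and Slc40a1 had no entry.

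Before stimulation the taurine transporter Slc6a6 had the highest chromatin level of the members, at 11.1, 19.1 and 12.2 RPKM in the 3 wild-type libraries of the Nfkb1 series (14.1 ± 4.35, SD). Next came Slc15a4 (8.20 ± 3.22), the mitochondrial phosphate carrier Slc25a3 (8.10 ± 2.42), the neutral amino acid transporter Slc38a2 (7.83 ± 1.33) and Slc35f6 (6.51 ± 1.67), whose neighbours in this order overlap within their spread. Over the 94 members the median of the means was 1.02 RPKM and 48 reached 1. In the mRNA library at 0 h Slc6a6 was again highest at 337 RPKM, followed by Slc25a3 at 194, Slc11a1 at 190, the heme transporter Slc48a1 at 163 and the adenine nucleotide carrier Slc25a4 at 162. The median member stood at 9.97 RPKM there, and 87 of the 94 reached 1.

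Lipid A lowered the chromatin RNA of more members than it raised. The test set 5 wild-type libraries per time (3 of the Nfkb1 and 2 of the Nfkbid series, none of them used to choose members) against 0 h, and 61 members passed the filter on low values. A gene was called when the limma test gave an adjusted p below 0.05 and the log2 difference of RPKM + 0.5 was at least 1 in size, which is 2-fold on that scale. Of the 61, 9 were called higher at 1 or more times, beside 14.9% of all 5061 genes tested, and 31 lower, beside 37.3%. At 0.5 h 5 were higher and 11 lower (5.83% and 19.1% of all genes), at 1 h 4 and 15 (6.09% and 19.7%), at 2 h 2 and 24 (9.07% and 19.2%), and at 6 h 4 and 15 (8.42% and 16.9%). The median member differed from 0 h by -0.47, -0.45, -0.86 and -0.48 at these times, and the median of all genes by -0.48, -0.40, -0.39 and -0.37. Relative to that shift, with each library centred on its median gene, 16 members were higher (23.3% of all genes) and 12 lower (12.6%).

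**Figure D1:**
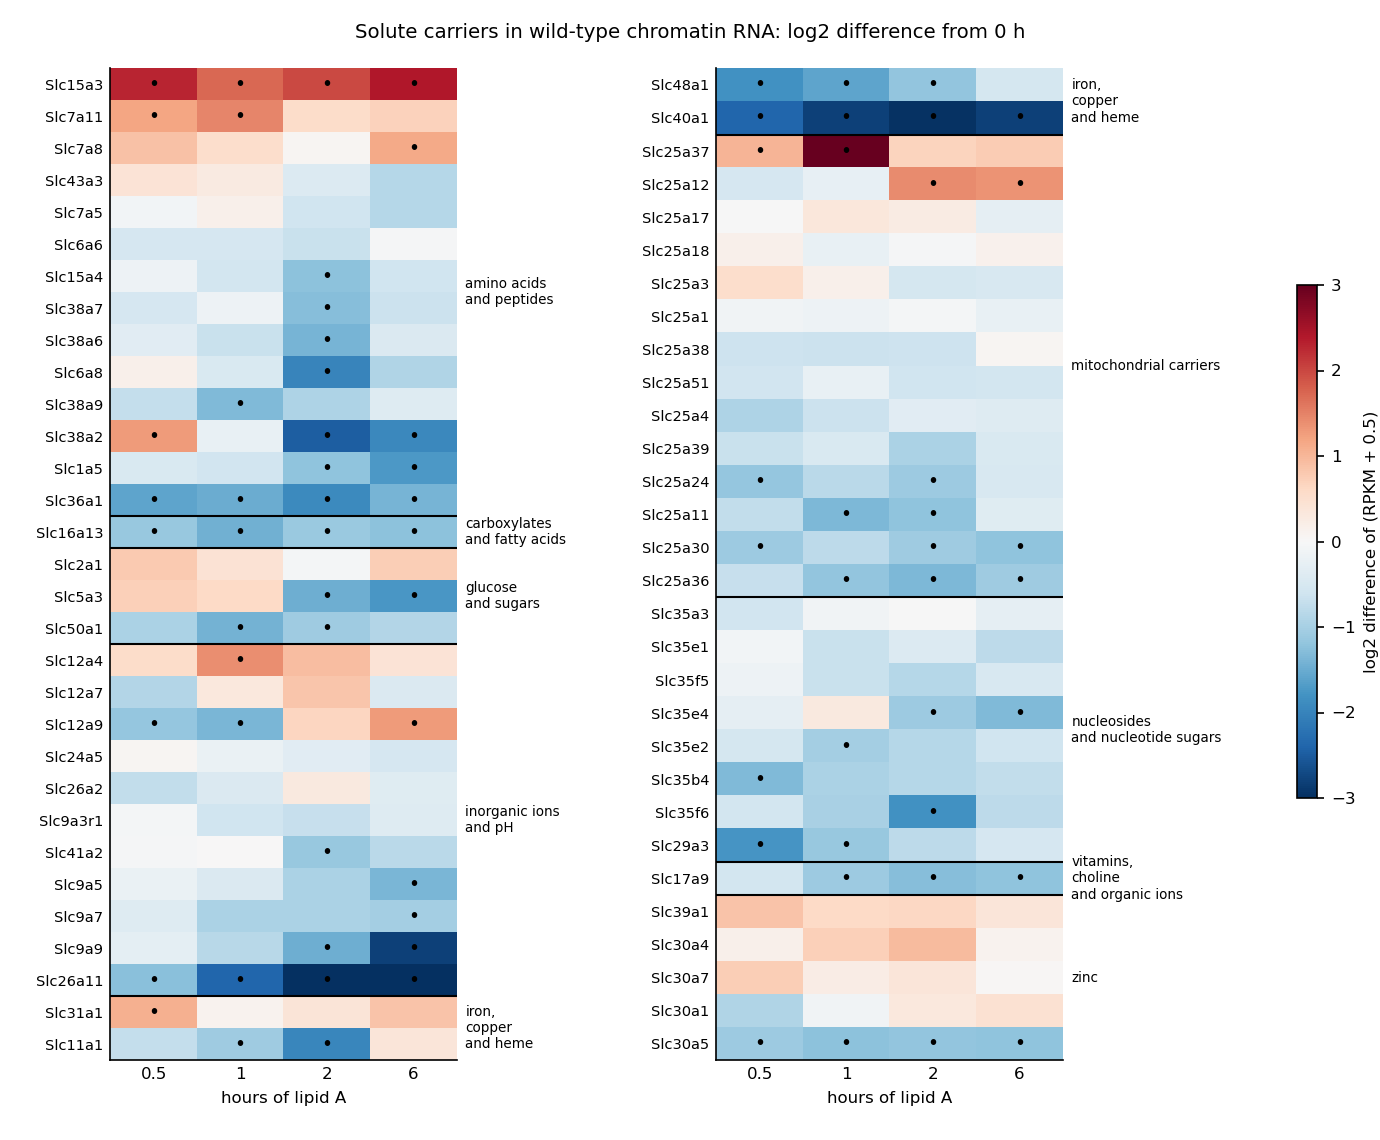
Log2 difference of RPKM + 0.5 from 0 h in wild-type chromatin RNA for the 61 tested members, by substrate group (rows) and hours of lipid A (columns), from 5 libraries per time; the colour scale runs from -3 to 3, values beyond it take the end colours, and dots mark calls. Slc15a3 carries a dot in red at all 4 times, and Slc40a1, Slc26a11, Slc36a1, Slc30a5 and Slc16a13 carry one in blue at all 4.

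Of 14 amino acid and peptide carriers tested, 4 were called higher and 8 lower at 1 or more times, beside 14.9% and 37.3% of all genes. Slc38a2 was called in both directions. The same shares of all genes stand beside the counts of the other substrate groups below. Slc15a3, the endolysosomal histidine and peptide transporter, was at 4.35, 2.96, 3.69, 2.49 and 4.47 RPKM at 0 h (Nfkb1 series replicates 1 to 3, then Nfkbid series replicates 2 and 3, the order used throughout). It was at 11.3, 24.1, 23.1, 21.0 and 19.1 at 0.5 h and at 17.1, 18.9, 26.9, 16.5 and 26.6 at 6 h. Every stimulated library lay above every unstimulated one at these times. The log2 difference was 2.29 (SE 0.26, adjusted p = 8.3e-08) at 0.5 h, 1.72 at 1 h, 1.97 at 2 h and 2.40 (adjusted p = 6.3e-08) at 6 h. The gene overlaps Tmem132a, and reads over the shared stretch cannot be assigned to either.

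Slc7a11, the cystine and glutamate exchanger, was nearly silent at 0 h, with 0.0702, 0.0192, 0.0138, 0.0952 and 0.0389 RPKM. At 0.5 h it stood at 1.70, 0.493, 0.356, 0.508 and 1.08, and at 1 h at 2.12, 0.383, 2.32, 0.156 and 1.28. The groups did not overlap at either time, and at 1 h the 5 libraries ran from 0.156 to 2.32. Every 0 h library was below the RPKM of 1 set by the filter. Slc7a11 therefore entered the test through stimulated libraries alone, and the lack of overlap is a description. It was also called with no filter on low values. The log2 difference was 1.19 at 0.5 h (SE 0.38, adjusted p = 0.0092) and 1.46 at 1 h (adjusted p = 0.0019), and without replicate 1 of the Nfkb1 series it was 1.00 at 0.5 h, just short of the 2-fold bar. Slc7a8, which carries large neutral amino acids, rose at 6 h by 1.14 (SE 0.35, adjusted p = 0.0078).

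Slc38a2, the sodium-coupled neutral amino acid transporter, moved up and then down. Its level was 9.29, 6.67, 7.52, 9.48 and 12.6 RPKM at 0 h, 20.7, 20.2, 25.8, 23.5 and 21.3 at 0.5 h, and 2.65, 0.534, 0.972, 0.916 and 1.55 at 2 h. All libraries at 0.5 h were above, and all at 2 h below, those at 0 h; the log2 difference was 1.27 (SE 0.41, adjusted p = 0.011) and then -2.47 (adjusted p = 1.9e-05). The lysosomal proton-coupled amino acid transporter Slc36a1 fell at once and stayed low: from between 1.57 and 3.08 RPKM at 0 h to between 0.333 and 0.603 at 0.5 h, a log2 difference of -1.58 (SE 0.15, adjusted p = 4.9e-09), with -1.49, -1.92 and -1.40 at the later times. The creatine transporter Slc6a8 fell at 2 h by 1.98 (SE 0.32), and the glutamine transporter Slc1a5 fell by 1.72 (SE 0.29) at 6 h. Slc15a4, Slc38a6, Slc38a7 and the lysosomal arginine sensor Slc38a9 were each called lower at 1 time. Slc6a6 was not called at any time, with log2 differences between -0.66 and -0.03.

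Of the iron, copper and heme carriers, 3 of the 4 tested were called lower and 1 higher. Slc40a1, the only known cellular iron exporter, was low within 0.5 h: 3.02, 5.51, 5.30, 3.70 and 3.84 RPKM at 0 h became 0.523, 0.236, 0.709, 0.308 and 0.317 at 0.5 h and 0.168, 0.0220, 0.193, 0.0365 and 0.103 at 2 h. No library of any later time reached the 0 h range, and the log2 difference was -2.37, -2.80, -2.96 and -2.80 over the 4 times (SE 0.17, adjusted p = 1.2e-12 at 2 h). Slc11a1, the phagosomal divalent metal transporter, went down and came back. It was at 4.03, 5.67, 2.34, 4.19 and 3.53 RPKM at 0 h, at 1.01, 0.442, 0.502, 0.431 and 0.804 at 2 h, and at 7.25, 4.08, 5.24, 2.45 and 7.96 at 6 h. The 2 h libraries lay below all those at 0 h (log2 difference -1.95, SE 0.25, adjusted p = 5.8e-07), whereas the 6 h libraries overlapped them (0.35, adjusted p = 0.24). Slc48a1, which moves heme out of the phagolysosome, fell by 1.82 at 0.5 h (SE 0.30), by 1.59 at 1 h and by 1.17 at 2 h, and was not called at 6 h (-0.53).

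The copper importer Slc31a1 was the member of this group called higher. It was at 0.838, 2.14, 1.59, 2.22 and 1.35 RPKM at 0 h and at 1.67, 6.68, 4.12, 8.35 and 1.94 at 0.5 h. Each library rose above its own 0 h partner, but the groups overlapped, and the log2 difference was 1.08 (SE 0.35, adjusted p = 0.010). Without replicate 2 of the Nfkb1 series it was 0.99 and without replicate 2 of the Nfkbid series 0.92, both short of 2-fold. At 6 h the difference was 0.85 (adjusted p = 0.040).

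**Figure D2:**
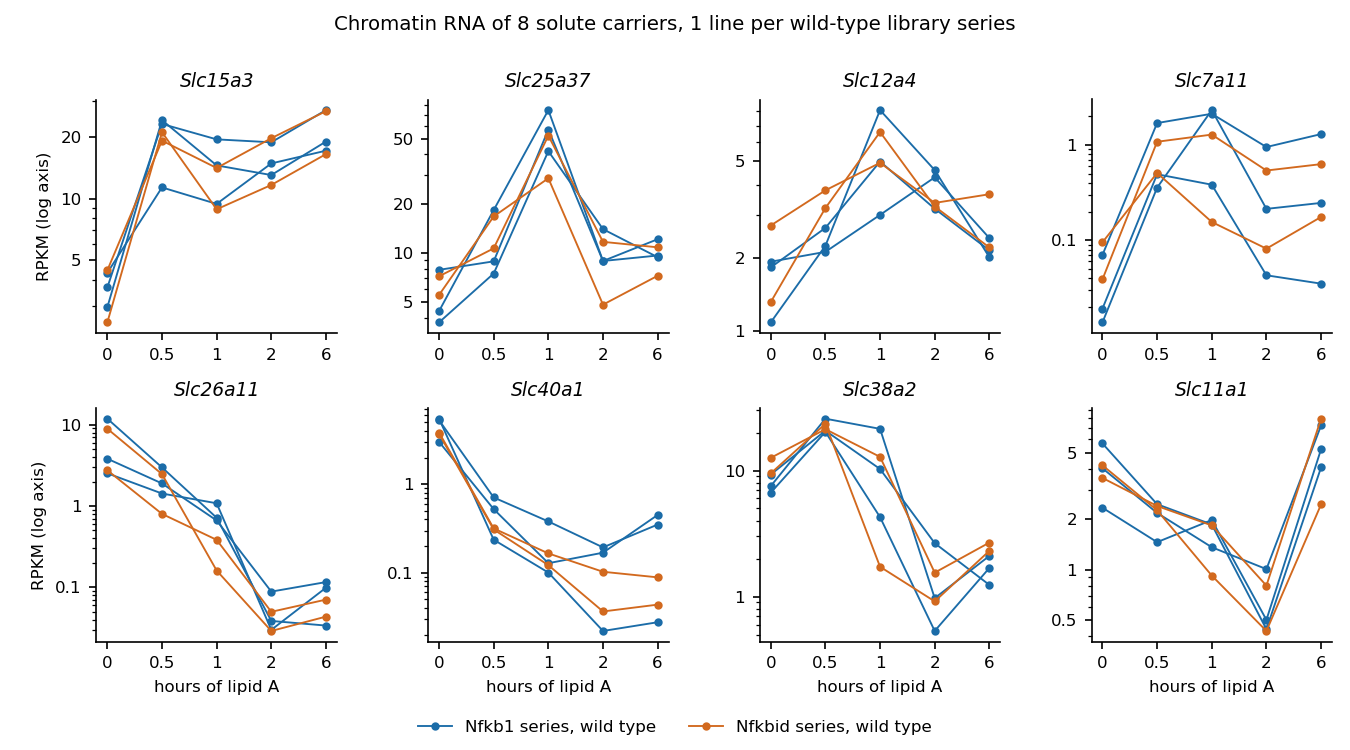
Chromatin RPKM (log axis) over hours of lipid A for 8 members; each line joins the libraries of 1 wild-type replicate, 3 of the Nfkb1 series and 2 of the Nfkbid series. Slc25a37 peaks at 1 h between 28.6 and 74.7 RPKM in all 5 lines, and Slc11a1 has its lowest point at 2 h in all 5.

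Among mitochondrial carriers, 2 of the 14 tested were called higher and 4 lower. On the scale of log2(RPKM + 0.5), the largest rise among the 61 tested members was that of Slc25a37 (mitoferrin), which brings iron into mitochondria. That scale understates changes of low genes such as Slc7a11. Slc25a37 was at 3.75, 4.40, 7.86, 5.52 and 7.18 RPKM at 0 h and at 41.9, 74.7, 56.8, 28.6 and 52.1 at 1 h. The groups lay far apart (log2 difference 3.02, SE 0.31, adjusted p = 1.2e-08). By 2 h the libraries were back to between 4.82 and 14.0, and the difference of 0.67 was not called. The aspartate and glutamate carrier Slc25a12 rose later, from 0.464, 0.653, 1.06, 0.810 and 0.918 RPKM at 0 h to 1.40, 2.81, 3.33, 4.43 and 3.21 at 2 h, without overlap (1.42, SE 0.28, adjusted p = 1.4e-04), and was 1.36 higher at 6 h. Slc25a11, Slc25a24, Slc25a30 and Slc25a36 were called lower at 2 or 3 times each. Slc25a30, for example, went from between 0.996 and 1.46 RPKM at 0 h to between 0.191 and 0.322 at 6 h (-1.20, SE 0.10). The phosphate carrier Slc25a3 was not called, with log2 differences of 0.53 to -0.53.

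Carriers of inorganic ions had 2 of 11 members called higher and 6 lower, Slc12a9 in both directions. On the scale of log2(RPKM + 0.5), Slc26a11, an anion exchanger of lysosomal and plasma membranes, fell furthest of the 61 tested members. It went from 3.81, 11.8, 2.52, 8.91 and 2.75 RPKM at 0 h to 0.0884, 0.0385, 0.0299, 0.0290 and 0.0499 at 2 h. The lowest 0 h library was still above every 2 h library (log2 difference -3.32, SE 0.31, adjusted p = 3.1e-09). The endosomal sodium and proton exchanger Slc9a9 declined step by step, with log2 differences of -0.29, -0.84, -1.47 and -2.81. It was at 1.22, 4.16, 4.52, 5.64 and 2.25 RPKM at 0 h and at 0.00846, 0.0145, 0.0280, 0.0429 and 0.0408 at 6 h (SE 0.43, adjusted p = 8.0e-06), again without overlap. The potassium and chloride cotransporter Slc12a4 rose from 1.93, 1.09, 1.83, 1.32 and 2.72 RPKM at 0 h to 3.01, 8.10, 4.98, 6.59 and 4.92 at 1 h, without overlap (1.38, SE 0.22, adjusted p = 1.1e-05). Slc12a9 fell by 1.16 at 0.5 h and by 1.37 at 1 h and was 1.29 higher at 6 h (SE 0.23, adjusted p = 5.6e-05), when its libraries held 3.51 to 8.05 RPKM against 1.63 to 2.91 at 0 h.

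In the remaining groups no member was called higher. Of 8 nucleoside and nucleotide sugar carriers, 5 were called lower, among them the lysosomal nucleoside transporter Slc29a3, which dropped from between 1.16 and 2.93 RPKM at 0 h to between 0.145 and 0.246 at 0.5 h (-1.77, SE 0.17) and was back at 0.944 to 1.42 at 6 h (-0.51). Slc35f6 fell by 1.82 at 2 h. Of 3 sugar carriers, Slc50a1 and the myo-inositol transporter Slc5a3, which overlaps Mrps6, were called lower; Slc5a3 differed by 0.72 and 0.59 at 0.5 and 1 h and by -1.47 and -1.75 at 2 and 6 h. The glucose transporter Slc2a1 was higher at 0.5 h, with 2.26 to 3.31 RPKM against 0.958 to 2.43 at 0 h, but its log2 difference of 0.77 (adjusted p = 0.0068) was short of 2-fold, as was that of 0.74 at 6 h. With libraries centred on the median gene it was called at both times (1.31 and 1.16). Of 5 zinc carriers, Slc30a5, which loads zinc into the early secretory pathway, was lower at all 4 times (-1.10 to -1.23), as was the monocarboxylate carrier family member Slc16a13 (-1.12 to -1.43). The vesicular nucleotide transporter Slc17a9 fell by 1.09, 1.28 and 1.21 at 1, 2 and 6 h.

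Other transport genes of the same cells give a frame for these counts, again beside 14.9% of all genes called higher and 37.3% called lower. Of 33 ABC transporters in the table, 10 were tested; 0 were called higher and 6 lower, among them the cholesterol exporters Abca1 and Abcg1. Of 17 subunits of the vacuolar proton pump, 10 were tested, 0 were called higher and 5 lower. Of the 132 Slc genes short of the bar 1 was tested and not called, and none of the 5 Slco genes was tested. Among enzymes and storage proteins linked to the members' substrates, Acod1 (which makes itaconate), Ass1, Hk2, Fth1, Mt2 and Gsr were called higher, and Ldha, Ftl1, Hmox1, Mt1, Gclc and Gclm lower.

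PolyA RNA of the wild-type mRNA series, with 1 library per point and therefore no test, showed more members past 2-fold at 6 h of lipid A than at any earlier time. At 6 h, of the 88 members with an RPKM of 1 in either library, 10 were at least 2-fold higher (8.20% of all genes so compared) and 35 at least 2-fold lower (21.9%), and the median log2 ratio was -0.77 against -0.04 for all genes. At 2 h the counts were 8 (5.77%) and 7 (7.14%). With TNFa at 6 h, 10 were higher (5.79%) and 17 lower (10.7%), with a median of -0.26 against 0.00. Both stimuli were compared with the same 0 h library. The shares and medians of all genes are no fair background in this series. Low genes carry repeated values there: the mast cell markers summed to 2.89 RPKM at 0.5, 1, 2 and 6 h of lipid A alike. At 6 h of lipid A 9082 genes were at the bar, against 6271 for Control cells at 2 h of lipid A. In those Control cells the median log2 ratio to 0 h was -0.58 for members and -0.44 for all genes. Each neutrophil and granulocyte precursor marker measured was lower at 6 h of either stimulus than at 0 h. Mpo was at 4.45 RPKM at 0 h, 0.493 at 6 h of lipid A and 0.195 at 6 h of TNFa. S100a8 was at 55.4, 49.2 and 38.8 in the same libraries. The part of these markers in the member ratios of the mRNA series was not tested.

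Slc15a3 mRNA went from 88.4 RPKM at 0 h to 249 at 2 h and 962 at 6 h of lipid A, and to 180 at 6 h of TNFa. Slc2a1, short of 2-fold in the wild-type chromatin fit of lipid A, went from 21.3 to 170 RPKM with lipid A and to 74.8 with TNFa. For Slc7a11 the order was the other way round: from 0.625 it reached 10 RPKM with lipid A and 31.7 with TNFa. Slc25a37 reached 59.0 RPKM at 2 h and 48.3 at 6 h of lipid A from 9.44 at 0 h, and 54.2 at 6 h of TNFa. The lactate and pyruvate carrier Slc16a1, not among the tested chromatin members, was at 2.17 RPKM at 0 h and 8.59 at 6 h of lipid A. The zinc importer Slc39a4 went from 1.51 to 7.35 RPKM at 6 h of TNFa.

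Among members that were lower, Slc26a11 was at 25.3 RPKM at 0 h, 0.636 at 6 h of lipid A and 1.76 at 6 h of TNFa. Slc40a1 stood out between the stimuli: it was at 17.7 RPKM at 0 h, 1.76 at 6 h of lipid A and 18.5 at 6 h of TNFa. Slc38a2 was at 66.3 and 13.1 RPKM at 0 h and 6 h of lipid A. The glucose transporter Slc2a3 was at 4.80 RPKM at 0 h, 0.404 with lipid A and 0.930 with TNFa. Slc11a1, whose chromatin RNA dipped at 2 h, was at 190, 212, 186, 182 and 116 RPKM in mRNA over the 5 times of lipid A. None of these single-library differences has a replicate check.

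**Figure D3:**
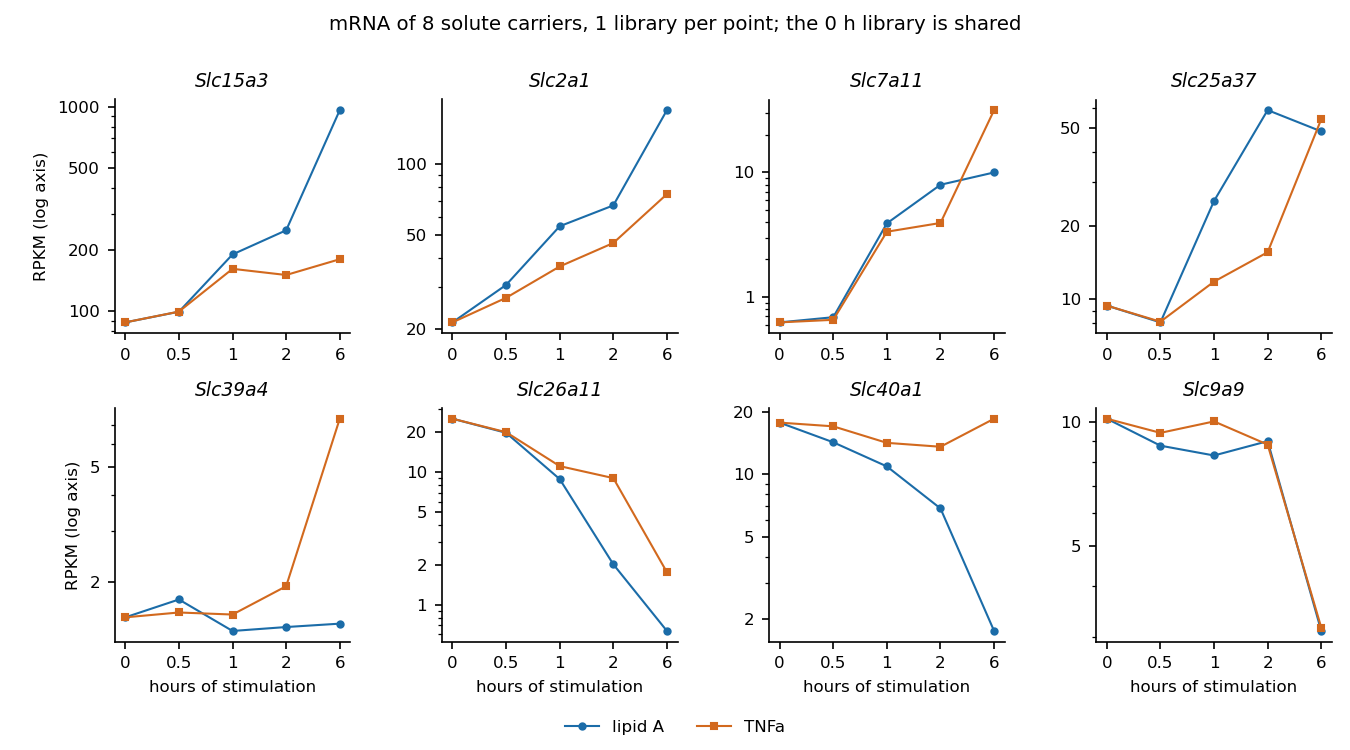
mRNA RPKM (log axis) of 8 members over hours of lipid A (circles) or TNFa (squares) in wild-type macrophages, 1 library per point with the 0 h library in common. Slc15a3 ends at 962 RPKM with lipid A and 180 with TNFa, Slc7a11 at 10 and 31.7, and Slc40a1 at 1.76 and 18.5.

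In chromatin RNA after TNFa, again with 1 library per point, 5 of 49 members were at least 2-fold higher at 0.5 h (8.63% of all genes) and 2 lower (4.53%). Slc7a11 went from 0.0401 to 2.42 RPKM, Slc15a3 from 4.09 to 10.8 and Slc31a1 from 1.12 to 3.08, and the zinc importer Slc39a1 from 0.969 to 2.45. The endolysosomal Slc15a4, which lipid A lowered at 2 h, went from 4.39 to 9.52. Slc40a1, whose mRNA is given above for another time, 6 h, was at 2.12 and then 0.426 RPKM in chromatin RNA. At 6 h Slc7a11 stood at 2.97, Slc25a37 at 13.3 against 5.22 at 0 h, Slc2a1 at 4.30 against 1.57 and Slc11a1 at 6.39 against 2.82.

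The knockout series asked which of these levels depend on p50 or a nuclear IkB protein. In the Nfkb1 knockout 53 members were tested and 0 were called in either direction at 1 or more times, where 0.133% of all genes were called higher and 0.906% lower by limma; 0 members passed an unadjusted p below 0.05 together with 2-fold. The nearest to a call was Slc31a1 at 2 h, with 1.39, 2.95 and 2.83 RPKM in wild type and 0.414, 1.05 and 1.51 in the knockout. The ranges overlapped slightly, each knockout library was below the wild-type library of the same number, and with the replicate number as a block the difference was -0.98 (adjusted p = 0.030), short of 2-fold. In the Bcl3 knockout (58 members tested) and the Nfkbid knockout (62 tested) 0 members were called, 0.0% of all genes were called by limma in either series, and 0 members passed an unadjusted p below 0.05 together with 2-fold. Without replicate 2 of the Bcl3 knockout, 10 of 55 members tested were called lower: Slc15a3, Slc25a1, Slc25a36, Slc25a37, Slc35f6, Slc38a2, Slc38a6, Slc6a8, Slc7a8 and Slc9a9. With that replicate left out 11.9% of all genes were called lower and 0.9% higher, and the calls rest on the lone remaining knockout library at each time.

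In the Nfkbiz knockout 63 members were tested and 5 were called, all at 6 h: 2 higher (1.84% of all genes at 6 h and 2.01% at 1 or more times) and 3 lower (3.62% and 4.26%). The 3 that fell were Slc31a1, Slc11a1 and the sugar transporter Slc50a1. Slc31a1 was at 3.76 and 2.78 RPKM in wild type and at 0.983 and 0.818 in the knockout (log2 difference -1.42, SE 0.14, adjusted p = 1.8e-05). Slc11a1 was at 4.21 and 2.55 in wild type and at 1.19 and 0.996 in the knockout (-1.25, SE 0.22, adjusted p = 0.0019), and Slc50a1 at 1.52 and 1.01 against 0.323 and 0.400 (-1.02, SE 0.20, adjusted p = 0.0040). Slc50a1 had few reads, with a median of 57 over the chromatin libraries of the knockout series. In each of the 3 members the genotypes were apart. For Slc31a1 they had been close at 0.5 h, with 3.32 and 2.78 RPKM in wild type and 3.46 and 3.83 in the knockout, and for Slc11a1 at 0 h, with 3.14 and 3.67 against 3.53 and 4.02. The 4 macrophage markers summed to 35.1 and 31.7 RPKM in these wild-type libraries and to 31.4 and 37.2 in the knockout. That sum itself moved with lipid A, from 38.8 at 0 h to 8.42 at 1 h in wild-type replicate 1. It therefore does not measure the share of macrophages.

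The 2 members that rose carry ions. The potassium and chloride cotransporter Slc12a7 was at 1.58 and 2.25 RPKM in wild type and at 4.47 and 5 in the Nfkbiz knockout (1.13, SE 0.17, adjusted p = 6.4e-04). The zinc transporter Slc30a4 was at 0.465 and 0.512 in wild type and at 1.77 and 1.76 in the knockout (1.20, SE 0.26, adjusted p = 0.0075). Neither pair of genotypes overlapped. At 2 h Slc12a7 had been at 4.05 and 4.67 in wild type and 3.87 and 4.36 in the knockout, so the wild-type values were lower at 6 h than at 2 h and the knockout values were not. Without replicate 1 of the Nfkbiz wild type only Slc31a1 was still called among the 5 members, and with the spread estimated over all 4 series together neither Slc31a1 (adjusted p = 0.15), Slc50a1 (0.29) nor Slc12a7 (0.15) was.

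Slc15a3 also differed in the Nfkbiz series. It was at 13.6 and 16.5 RPKM in wild type and at 5.28 and 9.06 in the knockout at 1 h (log2 difference -1.06, SE 0.24), with an adjusted p of 0.058 that became 0.0069 with the replicate block. At 6 h it was at 22.8 and 19.7 against 10.6 and 12.6 (-0.85, adjusted p = 0.027), without overlap but short of 2-fold. In the other series none of the 5 members was called at 6 h, Slc30a4 being too low for a test in the Nfkb1 series. Slc31a1 was at 2.23, 3.50 and 4.23 RPKM in wild type and 1.56, 2.68 and 2.52 in the Nfkb1 knockout: each knockout library was below its same-numbered wild-type library, but the groups overlapped and the log2 difference of -0.46 was not called, also with the replicate block (adjusted p = 0.42). Slc11a1 was at 7.25, 4.08 and 5.24 RPKM in wild type and 7.89, 6.93 and 6.49 in the Nfkb1 knockout, higher in each same-numbered pair, with overlap. In the Bcl3 and Nfkbid series the log2 differences of the 5 members at 6 h ran from -0.27 to 0.37. Whether the Nfkbiz and Nfkb1 knockouts differ was tested directly for 68 members. At none of the 5 times did a member's difference pass an adjusted p of 0.05 in limma (1.01% of all genes did at 6 h), and 4 members, all at 6 h, passed an unadjusted p below 0.05 together with 2-fold (3.66% of all genes at 6 h). The closest was Slc11a1 at 6 h, where the Nfkbiz knockout effect (-1.25) and the Nfkb1 knockout effect (0.37, not called) lay on opposite sides of 0 and differed by -1.62 (SE 0.45, adjusted p = 0.056).

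**Figure D4:**
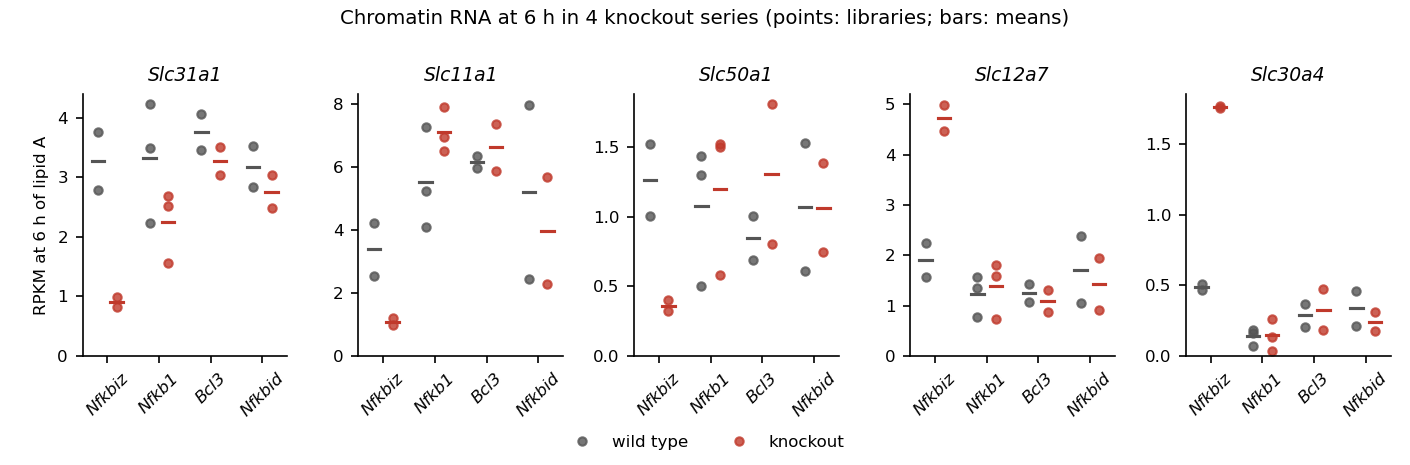
Chromatin RPKM at 6 h of lipid A for the 5 members called in the Nfkbiz knockout, in all 4 series; points are libraries, bars are group means, grey is wild type and red is knockout. The Nfkbiz genotypes are apart in each panel, as for Slc30a4 at 0.465 and 0.512 RPKM against 1.77 and 1.76, and the log2 differences tested in the other series are -0.46 to 0.37.

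Slc13a3, a sodium-coupled importer of dicarboxylates that also carries itaconate, was too low in chromatin RNA to pass the filter, so it was fitted with a pseudocount of 0.01 and no filter, a setting chosen after its values had been seen. Wild-type libraries held 0.00428, 0.0111, 0.0137, 0.00977 and 0.0106 RPKM at 0 h, 0.0207, 0.373, 0.0502, 0.418 and 0.109 at 1 h, and 0.150, 0.190, 0.180, 0.207 and 0.113 at 2 h. The groups did not overlap, and at 2 h these levels rest on 117 to 417 reads per library. The log2 difference from 0 h was 2.72 at 1 h, 3.15 at 2 h (SE 0.48) and 2.63 at 6 h, with adjusted p-values of 5.8e-05, 1.1e-05 and 1.1e-04. With these settings 13 of the 94 members were called higher (8.50% of all genes) and 71 lower (35.4%).

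The Nfkb1 knockout held less Slc13a3 RNA at 2 h: 0.150, 0.190 and 0.180 RPKM in wild type (117, 301 and 368 reads) against 0.00375, 0.0315 and 0.0260 in the knockout (2, 65 and 48 reads). The genotypes did not overlap. The difference was -2.73 (SE 0.62, adjusted p = 0.057), or with the replicate block an adjusted p of 0.0057 (SE 0.52). With that block and those settings 1 member was called higher in the Nfkb1 knockout (0.823% of all genes) and 3 lower (1.58%), the others being Slc25a30 higher at 6 h, and Slc24a5 (which overlaps Myef2) and Slc31a1 lower at 2 h. At 6 h wild type was at 0.0970, 0.117 and 0.0684 and the knockout at 0.00505, 0.0789 and 0.0273, with overlap.

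In the Nfkbiz series Slc13a3 stood at 0.726 and 0.116 RPKM in wild type at 2 h (1335 and 231 reads) and at 0.101 and 0.0222 in the knockout (197 and 41 reads). Replicate 1 was higher than replicate 2 in both genotypes, and each knockout library was below its wild-type partner. The difference of -2.35 had an adjusted p of 0.57 without the replicate block and of 0.014 with it. With the block and these settings 4 of the 94 members were called higher in the Nfkbiz knockout (2.18% of all genes) and 17 lower (7.03%). At 6 h the knockout held 0.335 and 0.137 against 0.627 and 0.127 in wild type, an overlap. In the Bcl3 series the values at 2 h were 0.132 and 0.269 in wild type and 0.118 and 0.225 in the knockout, and in the Nfkbid series 0.207 and 0.113 against 0.122 and 0.0942; neither difference was called.

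The libraries labelled IkBz OE, which helped to choose the members and so give a description only, held far more Slc13a3 polyA RNA than Control: 44.9 RPKM against 0.181 at 0 h, 27.8 against 0.723 after 2 h of lipid A and 32.9 against 0.639 after 2 h of TNFa. The log2 ratios of RPKM + 0.5 were 6.06, 4.53 and 4.87, the highest of all members in each comparison. Slc39a4 was next at 0 h, with 6.68 RPKM against 0.204, then 4.47 against 0.293 and 5.56 against 0.869. The heme and folate carrier Slc46a1 was at 9.18 against 2.79 at 0 h, Slc7a11 at 33.1 against 13 with lipid A, and the amino acid transporter Slc36a2 at 1.51 against 0.0977 at 0 h. In the other direction Slc40a1 was at 11.9 against 37.2, 5.31 against 19.6 and 7.47 against 23.3, and Slc9a9 at 13.6 against 31.4 at 0 h. Over the 3 conditions 5, 6 and 5 members were at least 2-fold higher (2.57%, 2.04% and 2.49% of all genes) and 2, 3 and 2 lower (1.42%, 1.86% and 1.68%). The higher counts are partly fixed by the choice of members and are not read against those shares: Slc39a4 and Slc36a2 reached an RPKM of 1 only in the 3 IkBz OE libraries of the 26, and Slc13a3 in those 3 and 1 Nfkbiz_WT library.

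Markers of another cell type moved with the same libraries. The 5 neutrophil and granulocyte precursor markers in the table (of 6) summed to 173, 130 and 194 RPKM in the IkBz OE libraries at 0 h, lipid A and TNFa, and to 12.9, 16.9 and 14.0 in Control. Each of the 5 was higher in every IkBz OE library, with S100a8 at 89.8 to 112 against 7.18 to 12.2 RPKM and Mpo at 10.3 to 31.6 against 0.226 to 1.79. The 4 macrophage markers summed to 11534 to 16831 RPKM in IkBz OE and to 6797 to 9330 in Control. These sums are mostly Lyz2. Over all polyA libraries Lyz2 reached 16322 RPKM, against at most 1311 for Csf1r, 399 for Fcgr1 and 16.2 for Mertk. The sums therefore do not show whether the other macrophage markers were higher in IkBz OE. The part of the neutrophil and macrophage markers in the member ratios was not tested.

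**Figure D5:**
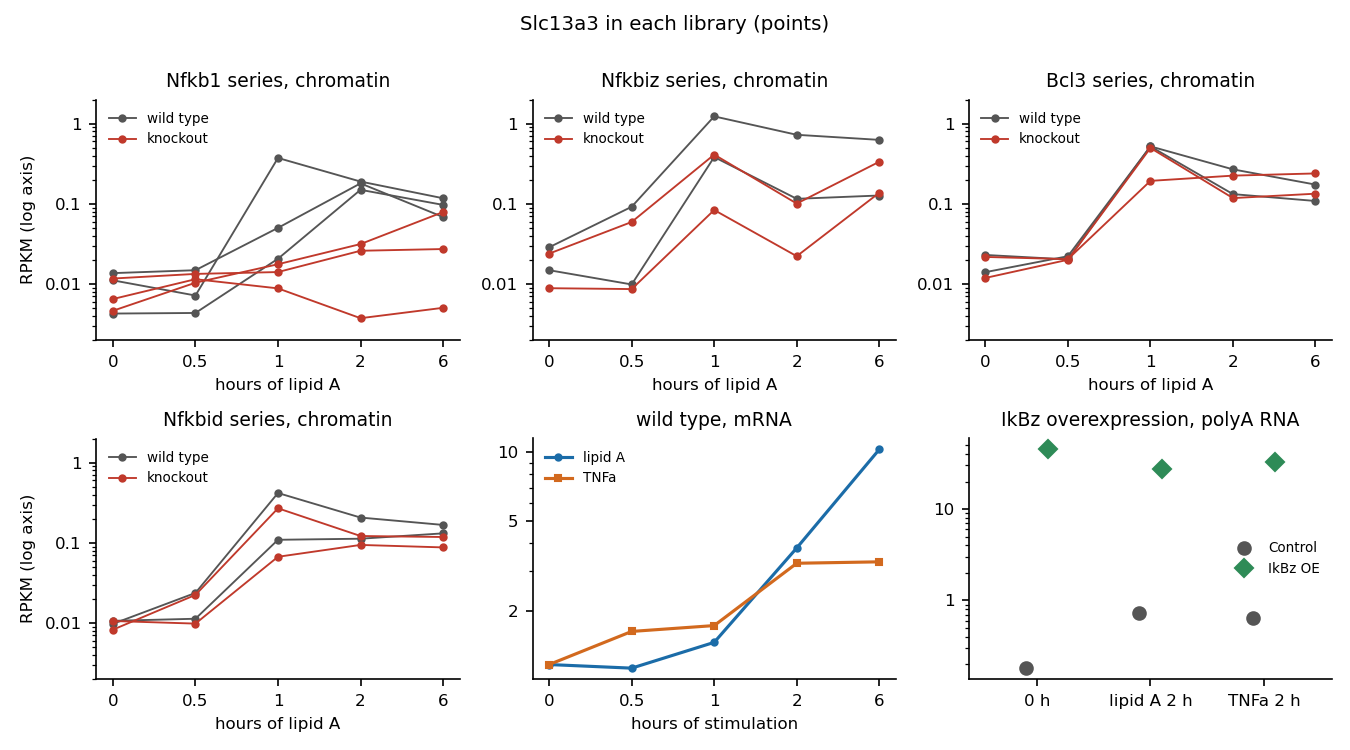
Slc13a3 RPKM (log axes) in each library: 4 chromatin panels by hours of lipid A with wild type in grey and knockout in red, the mRNA series with lipid A or TNFa, and the overexpression libraries. In the Nfkb1 panel the knockout lines lie below the wild-type lines at 2 h (0.00375 to 0.0315 against 0.150 to 0.190 RPKM), and IkBz OE lies at 27.8 to 44.9 RPKM against 0.181 to 0.723 in Control.

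The ERK inhibitor left most members within 2-fold. At 60 min, 0 of 29 members at the bar were at least 2-fold higher (4.60% of all genes) and 2 were lower (5.24%): Slc12a4, at 7.69 RPKM with DMSO and 2.00 with ERKi, and Slc2a1, at 2.13 and 0.748. Both had been lower before lipid A in the DMSO libraries, Slc12a4 at 1.03 and Slc2a1 at 0.466 RPKM. At 30 min Slc15a4 alone was past 2-fold among 26 members, at 2.78 with DMSO and 6.33 with ERKi (1.92% of all genes higher, 3.37% lower). Slc13a3, below the bar, was at 0.319 RPKM (579 reads) with DMSO at 60 min and at 0.0126 (22 reads) with ERKi, having been at 0.00614 (10 reads) and 0.00490 (11 reads) at 0 min. Each of these is 1 library against another and compares those libraries only.

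In the cells labelled J2 BMDM, 2 h of lipid A moved few members of polyA RNA past 2-fold: 3 of 88 were higher (5.82% of all genes) and 2 lower (3.87%) in wild type, with 1 library per point. Slc7a11 went from 2.50 to 18.2 RPKM, Slc15a3 from 63.7 to 176, Slc25a37 from 25.6 to 67.0 and Slc26a11 from 7.44 to 0.878. Between genotypes at 0 h, 3 of 89 members were at least 2-fold higher in the Nfkb1-/-, Nfkb2-/- mean (1.72% of all genes) and 2 lower (1.88%). Slc36a2, a transporter of small amino acids, was at 0.665 RPKM in wild type, 3.49 in Nfkb1-/- and 7.95 and 6.35 in Nfkb1-/-, Nfkb2-/-. Slc24a5, a potassium-dependent sodium and calcium exchanger whose gene overlaps Myef2, was at 49.1 RPKM in wild type and 102 and 153 in Nfkb1-/-, Nfkb2-/-. Slc13a3 was at 0.599 against 1.11 and 3.85, so the replicates disagreed in size. At 2 h of lipid A Slc15a3 was at 176 RPKM in wild type, 147 in Nfkb1-/- and 89.6 and 72.7 in Nfkb1-/-, Nfkb2-/-. The Nfkb1-/-, Nfkb2-/- replicates themselves were far apart for some members, as for Slc11a1 at 12.2 and 92.4 RPKM.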

How the data were processed

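RNA of mouse macrophages was sequenced in 136 libraries. The authors deposited 1 table of RPKM values for 15196 genes, per the file headers; HISAT2, SAMtools and the mm9 build are named in the submitters' processing notes, and the counting rule and use of strand are not given in the sources used here. Groups were taken from the labels. The members and lists were chosen with earlier results of these data known. Between 95.5% and 98.6% of low chromatin values were whole reads of the gene span, which gave depth; 19 members had a median under 100 reads.

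The main test was limma (3.58.1, R 4.3.3, trend, Benjamini-Hochberg per time over all genes fitted) on log2(RPKM + 0.5). In the knockout fits an RPKM of 1 was needed in as many libraries as the smallest group holds. For the wild-type response it was needed in 2 libraries, although each time held 5. A gene low at 0 h, such as Slc7a11, could thus pass through stimulated libraries alone. The pseudocount understates changes of low genes. Fits were also run on simulated data with independent noise between libraries. Libraries of the same number deviated together here, so that run does not show how the fits perform on these data. Named genes are members called in a fit, a list of transporters of activated macrophages, the 5 highest at 0 h, those nearest the bar and the 5 largest ratios of each single-library comparison. Same-numbered libraries deviated together (correlations 0.61 to 0.92 over 15 pairs in the Nfkb1 series, 0.45 to 0.73 over 10 in Nfkbiz, 0.27 to 0.76 over 10 in Bcl3 and 0.68 to 0.93 over 10 in Nfkbid), so replicate numbers were taken as pairs from the data, and fits with that block stand as alternatives, as do other pseudocounts, filters, centring and left-out libraries. In Nfkbiz, Bcl3 and Nfkbid, fitted with 2 replicates, both pairs of a time give the same correlation by construction. Each time therefore counts once there, and the 10 pairs are not separate values. The fits with a pseudocount of 0.01 were chosen after seeing the data. Of the members, 6 overlap another gene.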

Additional observations from a re-analysis of the deposited data

How the results depend on the processing

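For the wild-type response, 9 members called higher became 16 with centred libraries, and 31 called lower became 19 with a pseudocount of 1, 13 with a filter at RPKM 3 (25 tested), 12 with centred libraries and 71 with a pseudocount of 0.01 and no filter; leaving out 1 replicate gave 8 to 10 higher and 31 to 32 lower. For the Nfkbiz knockout, 2 higher became 4 with a pseudocount of 0.1, 0 with 1, 1 with a filter at RPKM 3, 4 with centring and 1 with the spread shared by the 4 series; 3 lower became 9 with a pseudocount of 0.1, 11 with 0.01 and no filter, and 1 with the shared spread. Leaving out 1 Nfkbiz replicate gave 0 to 3 higher and 1 to 7 lower: 0 and 1 without wild-type replicate 1, 6 lower without wild-type replicate 2 and 7 lower without knockout replicate 2, where the lone library is assumed to vary like the others. Leaving out 1 Bcl3 replicate gave 0 to 10 lower and 0 higher (10, with 11.9% of all genes, without knockout replicate 2), and 1 Nfkb1 or Nfkbid replicate 0 in both directions.

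With the replicate block alone the wild type gave 9 higher and 31 lower, the Nfkbiz knockout 2 and 4 (Slc15a3 at 1 h added), and the other knockouts 0 and 0; it changed no other call of a named member. With the block, a pseudocount of 0.01 and no filter, the Nfkb1 knockout gave 1 higher and 3 lower and the Nfkbiz knockout 4 higher and 17 lower (2.18% and 7.03% of all genes). The causes of these changes were not tested. Of the values of single called members under alternatives, 1072 kept their call, 147 fell short of a threshold and 0 changed sign. Calls of members that an alternative no longer tested, as with the filter at RPKM 3, are in none of these counts. The tally therefore covers only the members still tested. Depth limits members of few reads: for 19 of them, with a median under 100 reads in chromatin, differences may be undetectable. Slc16a13 (median 46 reads) and Slc50a1 (57) are among these and were called, so their calls rest on few reads.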

Other observations

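Some limits bear on these values. Genes with low levels enter no test, so the counts cover 53 to 63 of the 94 members. The Nfkbiz knockout rests on 2 libraries per genotype and time. Polyadenylated RNA was measured once per point for nearly every condition. The wild-type response was compared with 0 h libraries of the same replicates at every time, so the counts at the 4 times share their controls.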
